A study of Homo sapiens with 6 samples.

Results

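Adenosine is made outside the cell from released ATP, which CD39 (ENTPD1) strips to AMP and CD73 (NT5E) to adenosine, and it is removed by uptake through equilibrative transporters, by deamination to inosine and by phosphorylation back to AMP. Adenosine that stays outside acts on G protein-coupled receptors, and the CD73 pathway is known in glioblastoma as a source of adenosine that dampens immune cells. This account covers 10 of the 58884 genes measured: the ectoenzymes ENTPD1, ENTPD2 and NT5E, the deaminase ADA and its surface anchor DPP4, the nucleoside phosphorylase PNP, the adenosine kinase ADK, the transporters SLC29A1 and SLC29A2, and AHCY, the enzyme that releases adenosine from S-adenosylhomocysteine.

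The genes were taken by symbol from the deposited table, where each symbol had 1 row, so that the rule's choice by summed counts among duplicates was never needed. ADA was known beforehand as one of the largest decreases in soft gel and is the reason for the list. Its difference between the cultures is therefore described with no test. The other 9 genes were listed as its partners with the same results known, and their p-values come from a fit across all genes.

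RNA was sequenced from DBTRG, an established human glioblastoma cell line labelled as wild type, after 5 days of culture, either in 2D on a rigid dish (3 libraries) or in 3D within a soft gel (3 libraries). Stiffness and dimensionality changed together and cannot be told apart. The sources used here do not name the gel material, both groups are 1 cell line, and nothing says that the libraries came from separate cultures, so p-values reflect the scatter of these libraries alone, which could be technical. As bulk RNA, a smaller share of expressing cells and less RNA per cell cannot be told apart.

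Library totals ran from 20911363 to 25901499 counts. On the second principal component (17.3% of the variance of log2 CPM, where CPM is the count relative to the size of its library), rigid dish 1 stood apart from the other libraries, so results that rest on it are also given without it. Of the 8 glioma and astrocyte markers, 6 averaged over 1 TPM (a level per transcript length, comparable between genes), among them VIM, CD44 and SOX2, whereas OLIG2 was listed at 0 in all 6 libraries and GFAP stayed at or under 1.36 TPM. Mitochondrially encoded mRNA took 3.77% to 4.43% of counts on the rigid dish against 7.04% to 8.14% in soft gel. Its part in the differences below was not tested.

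Haemoglobin RNA was present, which a glioma line does not normally make. The 2 erythroid markers HBA1 and HBB summed to 0.0 to 197 TPM on the rigid dish against 300.2 to 598 TPM in soft gel, while the leukocyte marker PTPRC stayed at or under 0.31 TPM. Of 11 further erythroid genes, chosen after these values were seen, 1 (HBA2) averaged over 1 TPM and HBG1 was listed at 0 throughout. The microglia and macrophage list (6 markers) summed to 9.01 to 12.3 TPM on the rigid dish against 36.2 to 44.4 TPM in soft gel, nearly all of it CD68, a lysosomal protein that is not limited to macrophages. The 4 endothelial markers summed to 1.94 TPM or less in every library, and the 3 T cell markers to 2.41 TPM or less. The 3 neuron markers summed to 8.07 to 10.7 TPM on the rigid dish against 4.69 to 8.14 TPM in soft gel, most of it SNAP25. By library, HBA1 and HBB summed to 197, 0.0 and 81.3 TPM on the rigid dish, where ADA stood at 48.9, 67.1 and 62.45 TPM. In soft gel the sums were 598, 300.2 and 549 TPM, with ADA at 15.1, 11.9 and 12.7 TPM. The part of blood RNA in the differences below was not tested.

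The promoters of 3 genes with a single RefSeq start site are printed here because they belong to the member with the lowest level in soft gel relative to the rigid dish (ADA), to the most abundant ectoenzyme (NT5E) and to the member with the highest level in soft gel relative to the rigid dish (DPP4). Each runs from 250 bases before to 50 bases after the start site (RefSeq, GRCh38.p14), 5′ to 3′ on the gene's strand, with GC boxes (GGGCGG or its complement CCGCCC), the motif bound by Sp1-type factors, in capitals.
ADA, chr20:44651650-44651949, minus strand: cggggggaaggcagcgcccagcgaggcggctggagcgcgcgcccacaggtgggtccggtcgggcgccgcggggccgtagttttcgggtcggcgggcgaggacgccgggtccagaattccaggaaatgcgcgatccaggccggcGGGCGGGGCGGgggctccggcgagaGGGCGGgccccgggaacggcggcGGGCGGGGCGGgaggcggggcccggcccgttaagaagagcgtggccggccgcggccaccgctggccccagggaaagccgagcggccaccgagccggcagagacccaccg
NT5E, chr6:85449833-85450132, plus strand: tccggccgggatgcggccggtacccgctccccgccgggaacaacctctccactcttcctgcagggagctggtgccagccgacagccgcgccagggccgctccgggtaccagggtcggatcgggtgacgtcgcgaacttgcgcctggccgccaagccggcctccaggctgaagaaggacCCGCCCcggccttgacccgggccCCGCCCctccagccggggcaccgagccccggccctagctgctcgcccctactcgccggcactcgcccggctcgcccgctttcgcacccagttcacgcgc
DPP4, chr2:162074166-162074465, minus strand: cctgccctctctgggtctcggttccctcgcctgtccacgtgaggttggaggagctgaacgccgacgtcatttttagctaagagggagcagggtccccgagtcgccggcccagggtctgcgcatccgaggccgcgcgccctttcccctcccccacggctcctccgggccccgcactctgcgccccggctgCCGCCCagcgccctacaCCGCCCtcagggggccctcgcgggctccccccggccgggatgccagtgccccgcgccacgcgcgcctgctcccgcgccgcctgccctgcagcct

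The ADA window held 5 GC boxes, 2 of them in each of 2 runs written GGGCGGGGCGG, where neighbouring boxes share a G. NT5E and DPP4 held 2 each. At least 1 GC box was found in 45.0% of 35116 RefSeq promoters of the same length, at least 2 in 26.7% and at least 5 in 5.14%. GC content was 79.3% for ADA, 75.0% for NT5E and DPP4, and 58.7% for the median promoter. Exact matches to the TATA motif TATAAA (11.5% of promoters) were not found on either strand of these 3 windows. Nor were exact matches to the cAMP response element TGACGTCA (1.85%) or the AP-1 motif TGACTCA (4.95%), and partial matches were not counted. ACGTG, 1 form of the hypoxia core (21.4%), was found in the DPP4 window alone among the 3. The other form, GCGTG, was not counted, and all 3 printed windows hold it or its complement CACGC. Among the 10 genes, 9 matched the promoter table.

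The 10 genes fell into 3 tiers of abundance on the TPM scale, which alone allows levels of different genes to be compared. In both cultures AHCY was highest, at 149 ± 3.90 TPM on the rigid dish against 112 ± 5.68 TPM in soft gel (SD, n = 3 each, as throughout), and NT5E was second, at 114 ± 11.1 and 83.2 ± 8.38 TPM. ADA followed them on the rigid dish, at 59.5 ± 9.47 TPM, and lay above every library of ADK, PNP and SLC29A1, whose 3 ranges overlapped between neighbours at 26.0 to 27.5 TPM on average. In soft gel ADA, at 13.2 ± 1.63 TPM, lay below PNP (25.2 ± 1.84) and ADK (18.6 ± 0.922) and overlapped SLC29A1 (14.4 ± 0.954).

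The lower tier held ENTPD1 and SLC29A2, between 1.71 and 4.69 TPM in all libraries. Their order in TPM changed from ENTPD1 above SLC29A2 on the rigid dish to overlapping ranges in soft gel. The place of ENTPD1 is uncertain, because its TPM was low for its counts. It held 355 to 622 counts, against 522 to 604 for PNP and 70 to 166 for SLC29A2. The deposited gene lengths, 1903 bases for ENTPD1 and 1509 for PNP, do not account for its lower TPM, and the lengths behind the TPM are not given. DPP4 and ENTPD2 were under 1 TPM in every library. The second ectonucleotidase was thus close to the detection limit, with 2, 5 and 9 counts on the rigid dish against 6, 2 and 0 in soft gel for ENTPD2, where 3 counts is the limit that a count of 0 allows. ENTPD2 did not pass the filter on low counts and no difference was detectable at this depth.

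**Figure D1:**
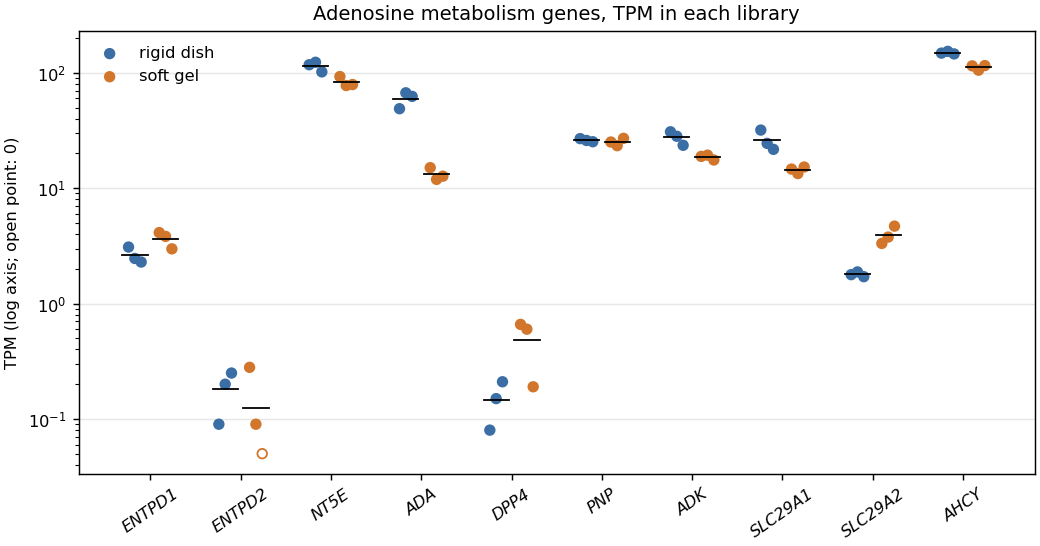
TPM of the 10 genes (log axis) in each of the 3 rigid dish and 3 soft gel libraries, with black bars for group means and an open point, drawn at 0.05, for a value of 0. ADA lies above ADK, PNP and SLC29A1 on the rigid dish but below PNP and ADK in soft gel, while PNP averages 26.0 TPM on the rigid dish against 25.2 TPM in soft gel.

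Of the 10 genes, 9 passed the low-count filter and entered the fit (edgeR's quasi-likelihood test on counts, called at a Benjamini-Hochberg adjusted p below 0.05 over 16098 genes). DPP4 passed only through its soft gel libraries, so it had to differ to be tested, and it is left out of the counts. Besides ADA and DPP4, 4 of the 7 tested members were lower in soft gel (NT5E, ADK, SLC29A1 and AHCY), where 13.2% of all genes tested were, and 1 was higher (SLC29A2), where 15.4% were. ENTPD1 and PNP did not pass. The median log2 fold change, soft gel over rigid dish, was -0.51 over the 9 fitted members and 0.05 over all genes tested, and since the members were listed with these results known, nothing is read from either count.

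Extracellular production came first in the pathway. NT5E, the CD73 enzyme anchored in the outer membrane that turns AMP into adenosine (ENSG00000135318, hg38 chromosome 6, 85449584 to 85495791, plus strand), held 223, 279 and 257 CPM on the rigid dish against 180.2, 157 and 169.9 CPM in soft gel. All 3 soft gel libraries were below all rigid dish libraries, a separation in either direction that 44.6% of all genes showed. The log2 fold change was -0.58 (SE 0.119, edgeR adjusted p = 0.00845), or 1.50-fold lower in soft gel. Without rigid dish 2 the adjusted p was 0.0502 and the call was lost, and without rigid dish 1 the log2 fold change was -0.67 (edgeR adjusted p = 0.00169).

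ENTPD1, the CD39 enzyme that supplies AMP to CD73 (ENSG00000138185, chromosome 10, 95711779 to 95869695, plus strand), did not follow NT5E. It held 21.7, 18.9 and 15.9 CPM on the rigid dish against 23.4, 25.3 and 21.6 CPM in soft gel, so that the lowest soft gel library lay below the highest rigid dish library. The log2 fold change was 0.31 (SE 0.151, edgeR adjusted p = 0.142). Single rigid dish libraries moved this value both ways, to 0.43 without rigid dish 1 (edgeR adjusted p = 0.0431) and to 0.15 without rigid dish 3 (0.522). ENTPD1 shares 454 exonic bases with its antisense gene ENTPD1-AS1, which held 43.6 to 87.0 counts, and no strand setting is given in the sources used here. NT5E exceeded ENTPD1 44.2 ± 6.08 times in TPM on the rigid dish against 23.1 ± 3.16 times in soft gel. The TPM of ENTPD1 was low for its counts, as described above, so the size of this ratio is uncertain in both cultures.

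ADA, which deaminates adenosine and deoxyadenosine to their inosine forms (ENSG00000196839, chromosome 20, 44619522 to 44652233, minus strand), held 1049, 1487 and 1443 counts on the rigid dish against 301, 256 and 249 in soft gel. In CPM the rigid dish libraries stood at 39.3, 64.1 and 64.7 and the soft gel libraries at 12.4, 10.4 and 11.7. The groups were far apart, and rigid dish 1, the lowest of its group, was still above every soft gel library. As a description, ADA was 4.87-fold lower in soft gel (log2 fold change -2.28, SE 0.203), the 18th lowest of 16098 genes, and -2.49 on the log2 scale without rigid dish 1. The gene overlaps PKIG on the opposite strand by 46 exonic bases.

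DPP4, also known as CD26, is the surface peptidase that binds ADA on the outside of cells (ENSG00000197635, chromosome 2, 161992241 to 162074542, minus strand). Few reads fell on it, with counts of 4, 9 and 5 on the rigid dish against 38, 29 and 10 in soft gel. In CPM all soft gel libraries were above the rigid dish libraries, whereas in TPM soft gel 3 (0.19) lay below rigid dish 3 (0.21). As a description, the log2 fold change was 2.08 (SE 0.568). With no low-count filter, where DPP4 did not enter through its soft gel libraries, the edgeR adjusted p was 0.00413. That fit also moved the edgeR adjusted p of other members, to 1.25e-06 from 0.00287 for SLC29A1 and to 0.379 from 0.142 for ENTPD1. Nothing is therefore read from the DPP4 value. With the filter, it was above 0.05 without rigid dish 3 (edgeR adjusted p = 0.0695), soft gel 1 (0.104) or soft gel 2 (0.0863). In limma it was 0.146 on log2(TPM + 1) and 0.125 on log2(TPM + 0.1). DPP4 entered these filtered fits only through its soft gel libraries, so nothing is read from these values either.

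**Figure D2:**
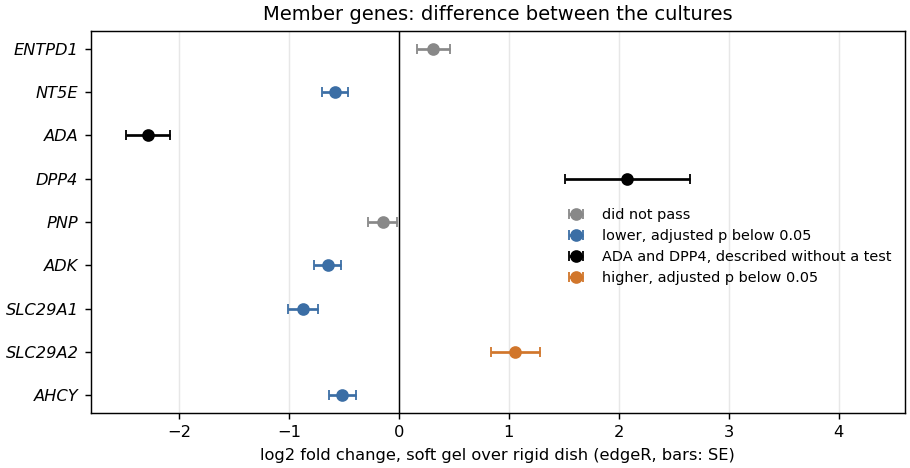
Log2 fold change of the 9 fitted genes, soft gel over rigid dish, with bars for the SE and colours for the edgeR call. ADA (-2.28) and DPP4 (2.08), both drawn in black as described without a test in this fit, lie at opposite ends, and the transporters SLC29A1 (-0.87) and SLC29A2 (1.06) on opposite sides of 0.

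PNP, which splits inosine and guanosine into base and ribose phosphate and so takes the product of ADA (ENSG00000198805, chromosome 14, 20468954 to 20477094, plus strand), held 22.6, 25.6 and 27.0 CPM on the rigid dish against 21.7, 21.2 and 25.0 CPM in soft gel. The groups overlapped. The log2 fold change was -0.15 (SE 0.134, edgeR adjusted p = 0.429), and it was not called under any alternative run, with adjusted p-values from 0.157 to 0.806.

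ADK, the kinase that returns adenosine to AMP and competes with ADA for it (ENSG00000156110, chromosome 10, 74151185 to 74709303, plus strand), was lower in soft gel. It held 27.4, 30.0 and 26.6 CPM on the rigid dish against 18.4, 17.5 and 17.7 CPM in soft gel, with no overlap. The log2 fold change was -0.65 (SE 0.122, edgeR adjusted p = 0.00604), or 1.57-fold, and the call held under all 14 alternatives run.

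The 2 equilibrative nucleoside transporters, which carry adenosine down its gradient in either direction, went opposite ways. SLC29A1, or ENT1 (ENSG00000112759, chromosome 6, 44219505 to 44234151, plus strand), held 35.1, 33.1 and 31.5 CPM on the rigid dish against 18.2, 16.0 and 20.3 CPM in soft gel. SLC29A2, or ENT2 (ENSG00000174669, chromosome 11, 66362521 to 66372214, minus strand), held 2.62, 3.19 and 3.27 CPM on the rigid dish against 5.19, 5.97 and 7.79 CPM in soft gel. Neither gene's groups overlapped, and SLC29A1 stayed the more abundant transporter in every library.

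For SLC29A1 the log2 fold change was -0.87 (SE 0.134, edgeR adjusted p = 0.00287), or 1.83-fold lower. SLC29A2 was 2.09-fold higher, at 1.06 on the log2 scale (SE 0.225, edgeR adjusted p = 0.00995). Both calls and both directions held under the 14 alternatives run, the other scalings included. Within libraries, SLC29A1 exceeded SLC29A2 in TPM 17.9, 13.0 and 12.7 times on the rigid dish against 4.41, 3.55 and 3.25 times in soft gel. The ratio averaged 14.5 ± 2.93 and 3.74 ± 0.602, without overlap.

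AHCY, which hydrolyses S-adenosylhomocysteine to adenosine and homocysteine and so couples methylation to adenosine (ENSG00000101444, chromosome 20, 34280268 to 34311802, minus strand), held 186, 226 and 236 CPM on the rigid dish against 149, 144 and 161 CPM in soft gel. The groups did not overlap, and rigid dish 1 was again the lowest of its group. The log2 fold change was -0.51 (SE 0.121, edgeR adjusted p = 0.0148). The call was lost without rigid dish 2 (edgeR adjusted p = 0.0713), soft gel 1 (0.0673) or soft gel 2 (0.0690). Its 6 named pseudogenes in the table held at most 2.0 counts in any library.

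In the authors' deposited table the partners called here had adjusted p-values below 0.05, from 9.45e-07 for SLC29A1 to 0.00301 for SLC29A2. ENTPD1 (0.288) and PNP (0.393) did not, and DPP4, left out of the counts here, had 0.0239. Those values come from the same libraries and are no independent check. For DPP4 the log2 fold change in the authors' deposited table was 1.08, against 2.08 in the fit here and 2.04 in the DESeq2 run here. The sources used here do not say how the authors' value was computed, so the 2 may not be like measures. The reason for the gap was not tested.

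The members differed by unequal amounts between the cultures, and so did their proportions within a library. NT5E makes extracellular adenosine, and ADA is a deaminase of adenosine. The TPM ratio of NT5E to ADA was 2.40, 1.84 and 1.63 on the rigid dish against 6.16, 6.51 and 6.22 in soft gel. This ratio compares RNA levels and does not measure how much adenosine is made or removed. It averaged 1.96 ± 0.400 and 6.30 ± 0.186, with no overlap. ADK to ADA, the 2 enzymes that use adenosine inside the cell, went from 0.476 ± 0.136 to 1.42 ± 0.187, so that ADK was below ADA in every rigid dish library and above it in every soft gel library. PNP to ADA went from 0.447 ± 0.0899 to 1.92 ± 0.232. These ratios all have ADA as the divisor and are given as descriptions.

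**Figure D3:**
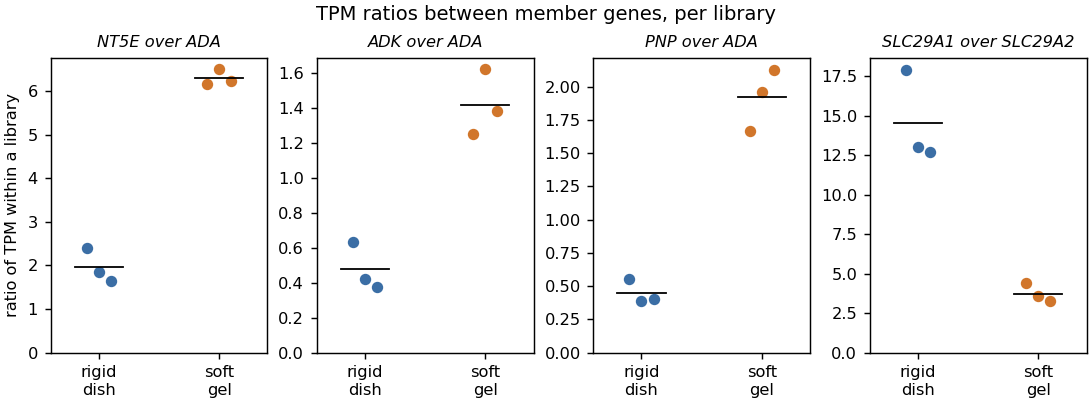
Ratio of 2 genes' TPM within each library, for 4 pairs, with points for libraries and bars for group means on axes that start at 0. In each panel the 3 soft gel libraries lie apart from the 3 rigid dish libraries, with NT5E over ADA at 1.63 to 2.40 on the rigid dish against 6.16 to 6.51 in soft gel.

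By contrast, AHCY to ADK overlapped between the groups, at 5.48 ± 0.693 and 6.04 ± 0.567. The 10 genes together made up 407 ± 21.1 TPM on the rigid dish against 275 ± 15.3 TPM in soft gel. ADA accounted for 14.6% ± 2.33 of that sum on the rigid dish against 4.81% ± 0.340 in soft gel, and AHCY for 36.7% ± 1.05 and 40.8% ± 1.18.

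Around these members, 53 further genes of purine nucleoside metabolism, chosen by function, were examined, of which 40 were tested. In soft gel 7 were higher and 5 lower, and 28 did not pass, with a median log2 fold change of -0.05. Called genes were thus 17.5% higher and 12.5% lower, against the 15.4% and 13.2% of all genes tested given above, which is near the background. Leaving out rigid dish 2, rigid dish 3, soft gel 1 or soft gel 2 left 2 higher, and 2 were lower without rigid dish 2 or soft gel 1 and 1 without soft gel 2.

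Of the adenosine receptors 3 were tested, too few to set their calls against the share of all genes. ADORA1, the A1 receptor that lowers cAMP, held 90.5, 114 and 127 CPM on the rigid dish against 58.2, 43.8 and 48.6 CPM in soft gel, with no overlap (log2 fold change -1.14, SE 0.159, edgeR adjusted p = 0.00195), and its call held under all 14 alternatives. ADORA2B, the low-affinity receptor that raises cAMP, held 35.9, 28.7 and 28.7 CPM on the rigid dish against 21.4, 19.1 and 23.4 CPM in soft gel (-0.55, SE 0.144, edgeR adjusted p = 0.0226). The ADORA2B call was lost under 5 alternatives, among them leaving out rigid dish 2 (edgeR adjusted p = 0.0580), soft gel 1 (0.0826) or soft gel 2 (0.0948).

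ADORA2A, the high-affinity receptor that raises cAMP, was far less abundant, at 0.861, 0.818 and 1.34 CPM on the rigid dish against 1.69, 1.75 and 2.06 CPM in soft gel. It did not pass (log2 fold change 0.86, SE 0.323, edgeR adjusted p = 0.0712), but limma called it on log2(TPM + 1) (adjusted p = 0.0314) and log2(TPM + 0.1) (0.0480). ADORA3 had 1 count in all libraries together. A1 was thus the receptor with the highest level in both cultures, at 82.6 to 89.8 TPM on the rigid dish against 36.9 to 53.6 TPM in soft gel.

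Adenylate kinases keep adenine nucleotides in balance. AK5, an adenylate kinase known from brain, rose from 6.14 ± 1.59 to 17.3 ± 2.00 CPM (log2 fold change 1.50, SE 0.214, edgeR adjusted p = 0.00209). AK3, of the mitochondrial matrix, was also higher (0.64, edgeR adjusted p = 0.0117). AK3 kept its call under 8 of 14 alternatives and was not called when rigid dish 2 or 3 or soft gel 1 or 2 was left out.

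NT5C, a cytosolic nucleotidase, fell from 43.9 ± 10.5 to 21.6 ± 5.23 CPM (log2 fold change -1.02, SE 0.219, edgeR adjusted p = 0.0102, and 0.0536 without soft gel 2). Of the 5 intracellular nucleotidases tested it was 1 that passed, near the 28.6% of all genes that did. In the methylation cycle, MAT2A, which makes S-adenosylmethionine, was lower (-0.35, edgeR adjusted p = 0.0422), and AHCYL2, an AHCY-like protein of ion transport control, rose from 37.3 ± 4.10 to 66.8 ± 3.89 CPM (0.84, edgeR adjusted p = 0.00228). The MAT2A call was lost under 7 of 14 alternatives and that of AHCYL2 under none.

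Smaller rises were called for the monoamine and adenosine carrier SLC29A4 (0.59, edgeR adjusted p = 0.0347), ADAL, a deaminase of modified AMP (0.48, 0.0325) and the endoplasmic reticulum enzyme ENTPD5 (0.43, 0.0416). These calls were lost under 8, 7 and 10 of 14 alternatives. ENTPD4, named outside the rule because it completes the count of surface and secretory hydrolases, also passed (0.39, edgeR adjusted p = 0.0349), but not under 9 of 14 alternatives. Of the 6 tested genes of base and nucleoside salvage or breakdown, 0 passed the edgeR test, where 28.6% of all genes did, a list too short to read a difference from. In edgeR and limma-voom 0 had an unadjusted p below 0.05 and in DESeq2 1 did, with 0 called by any of these, and the other alternatives gave 0 to 2 such genes. Leaving out rigid dish 1 gave 1 call, for APRT (edgeR adjusted p = 0.0375).

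**Figure D4:**
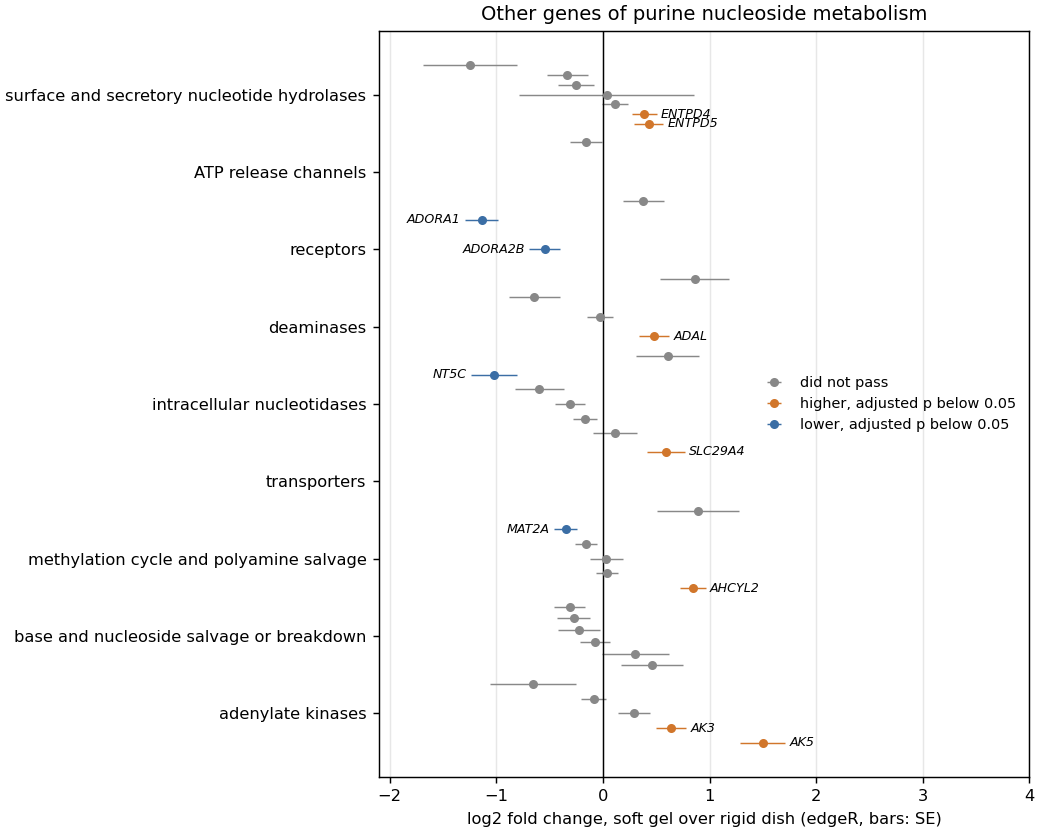
Log2 fold change of the tested pathway genes outside the members, soft gel over rigid dish, with 1 gene left out, in rows by role, with bars for the SE and names for genes that passed the edgeR test. Called genes lie on both sides of 0, with ADORA1 (-1.14) lowest and AK5 (1.50) highest.

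The genes nearest to ADA in profile were sought among 10928 other protein-coding genes with a mean of 5 CPM or more, by the root mean square difference of centred log2 CPM over the 6 libraries. They were the keratin KRT80 (0.107), the metallothionein MT1E (0.253), the adaptor AFAP1L2 (0.302), the prostaglandin transporter SLCO2A1 (0.336) and the collagen chain COL5A1 (0.359). KRT80 held 228, 299 and 309 CPM on the rigid dish against 61.3, 56.1 and 61.2 CPM in soft gel, sharing with ADA the lower value of rigid dish 1. MT1E belongs to a family of near-identical genes, so its level is uncertain.

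NT5E had closer neighbours, at 0.0316 for the kinase CSNK1E, 0.0433 for the lipid-binding SEC14L2, 0.0484 for the ribosome maturation factor NOB1, 0.0524 for the chaperone DNAJC9 and 0.0559 for the selenocysteine elongation factor EEFSEC. On log2(TPM + 1), 4 of the 5 genes nearest to ADA were again among the nearest 5, and 2 of the 5 nearest to NT5E.

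**Figure D5:**
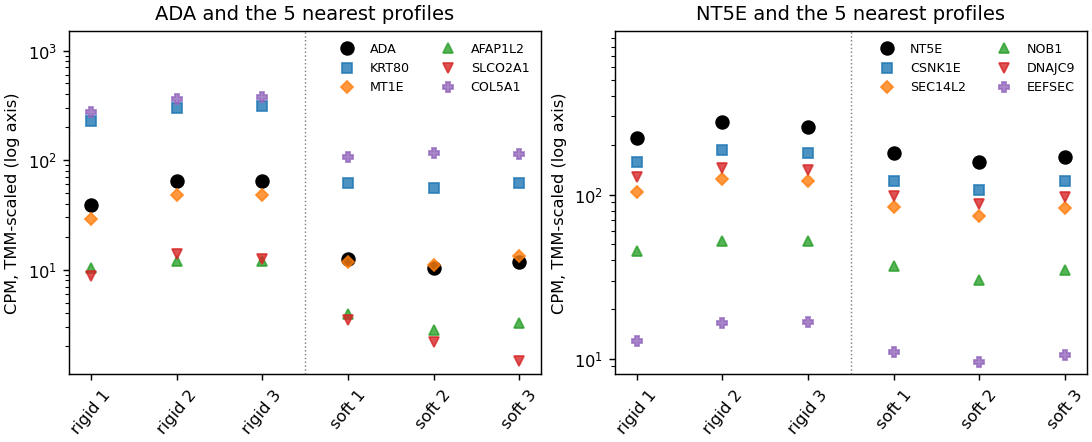
CPM (log axis) of ADA, of NT5E and of the 5 genes nearest to each, in the 6 libraries. KRT80 runs parallel to ADA in all libraries, at a root mean square difference of 0.107 on the log2 scale, and CSNK1E parallel to NT5E at 0.0316.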

How the data were processed

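TRIzol extraction of total RNA preceded an Illumina TruSeq RNA library kit, per the labels' protocols. HISAT2, HTSeq and hg38 are listed in the submitters' processing notes, without versions or roles. The authors deposited estimated counts per gene, which held decimals for 11.3% to 13.0% of genes per library, and TPM values. The sources used here give neither the quantifier nor the transcript lengths behind the TPM. A comparison deposited by the authors holds fold (as a linear ratio), log2 fold, p-value and adjusted p-value columns, and its name refers to DESeq2.

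Counts were rounded to whole numbers, filtered with filterByExpr (minimum count 10), scaled by TMM and tested with edgeR 4.0.16 (limma 3.58.1, DESeq2 1.42.0, R 4.3.3) without a replicate term. The SE was taken from the test statistic. At these depths 3 counts, the limit a count of 0 allows, are 0.116 to 0.143 CPM, for counting error only. Positions came from GENCODE 29 (hg38) and promoters from RefSeq. The pipeline was tested on simulated data, where false calls exceeded the nominal share when dispersion varied between genes as it does here. Far fewer genes were changed there than were called here, so that share cannot be carried over. Calls close to the threshold may still be less sure than their adjusted p states, and small differences can be missed.

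Members and lists were chosen with earlier results of these data known. Named are the members, the receptors, called pathway genes of 5 CPM or more (up to 6 per direction) and the 5 nearest profiles each; 1 called pathway gene counted in the totals is not reported here. The alternatives tried were size factors of DESeq2, upper quartile scaling, no filter, the DESeq2 test, limma-voom, limma with TPM on the log2(TPM + 1) or log2(TPM + 0.1) scale, a replicate block and leaving out each library.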

Additional observations from a re-analysis of the deposited data

How the results depend on the processing

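No fold change reversed under the 14 alternatives among the members and pathway genes for which the report gives one. Of the 7 tested members besides ADA and DPP4, 2 to 4 were called lower on leaving out 1 library, against 4. SLC29A2 was called higher whichever library was left out, and ENTPD1 too without rigid dish 1. Without rigid dish 2, 2 were lower. Among all genes, 1815 to 6158 were called on leaving out 1 library (1012 to 3262 higher, 803 to 2896 lower), against 4603 (2480 and 2123), and of the pathway list 2 to 7 higher and 1 to 7 lower, against 7 and 5. On log2(TPM + 1), limma called 2313 genes (1345 higher, 968 lower), 1 member higher, and 3 pathway genes in each direction. On log2(TPM + 0.1), it called 2287 genes (1327 higher, 960 lower), 1 member higher and again 3 pathway genes in each direction. With no low-count filter, 4 pathway genes were higher and 8 lower. On log2(TPM + 1), 2 of the 5 genes nearest to NT5E were shared. The cause of these shifts was not tested.

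Whether replicate numbers pair the samples is not known. Same-numbered libraries correlated at 0.217, 0.00912 and 0.307 in their deviations from group means, and differently numbered ones at -0.295 to 0.137. With the replicate block 6442 genes were called (3499 higher, 2943 lower). Members gave 4 lower, with SLC29A2 higher and DPP4 left out, and the pathway list 7 higher and 8 lower. At this depth ENTPD2, ADORA3 and DPP4 on the rigid dish are limited by counting.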
